A study of Homo sapiens with 4 samples.

Results

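Long non-coding RNAs are transcripts that are not translated into a known protein. To describe those that SNU638 cells expressed well, a gene listed with the long non-coding biotype was kept when its mean over the 4 libraries was at least 10 CPM, CPM being the counts of a gene per 1e6 counts of its library. The members were thus chosen by their mean level, and by neither of the comparisons described here. Genes with a hyphenated symbol made of the symbols of 2 listed protein-coding genes were left out as read-through transcripts, which removed 9 genes. Other read-through names, such as STAG3L5P-PVRIG2P-PILRB, stayed in. The rule kept 138 of the 14763 long non-coding RNAs listed (0.935%), among 46427 genes in all. SNU638 is a human gastric cancer cell line. The cells carried a control vector or a YTHDF1 vector, with 2 libraries of each that the labels number 1 and 2 as biological replicates. All 4 cultures had 24 h without serum and IFN-γ at 10 ng/ml, for 8 h according to the labels, so no library without IFN-γ was compared. The paper's legend gives a longer IFN-γ time for this experiment than the labels do. The model is a single cell line with the protein supplied from a vector, and the labels do not say what the replicate numbers share.

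YTHDF1 is a reader protein that binds N6-methyladenosine, a methyl mark on adenosines of messenger RNA and of many long non-coding RNAs. Long non-coding RNAs differ widely in what they do. Some build nuclear bodies, some bind and titrate proteins in the cytoplasm, and some are mainly carriers, whose introns hold small nucleolar RNAs (snoRNAs) or whose transcripts hold microRNA hairpins. Others start beside or opposite a coding gene and are named after it. YTHDF1 itself read 82.2 and 80.3 CPM in control numbers 1 and 2, and 16494.5 and 2628 CPM in YTHDF1 numbers 1 and 2. The 2 YTHDF1 libraries were thus far above the controls and far from each other.

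The libraries held between 57398137 and 60864942 counts. The epithelial markers KRT8, KRT18, KRT19, EPCAM and CDH1 were at 43.5 to 2927 mean CPM, while CLDN18 and TFF1, markers of gastric epithelium, had 0 counts in all 4 libraries, which allows up to 3 counts each. Of 11 markers of leukocytes, fibroblasts and endothelium, COL1A1 reached 8.28 and CD68 5.56 mean CPM and the others stayed under 1 CPM. The replicate numbers stood apart across the transcriptome. Between number 2 and number 1, 26.2% of the 17781 genes tested differed at an adjusted p under 0.05 with a log2 fold change of 0.5 or more in size (edgeR), and log2 CPM correlated at r = 0.985 and 0.983 between the vectors of a number but at 0.886 and 0.888 between the numbers of a vector. Every vector comparison below is therefore given also within each number.

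The members were a small share of the RNA. They took 0.534% to 0.600% of the counts of a library, and the 10 leading RNAs took 43.5% to 44.4% of that. Of all listed long non-coding RNAs, 9486 had 0 counts in every library and 872 reached a mean of 1 CPM. Among protein-coding genes, 9653 of 19672 (49.1%) reached the 10 CPM floor. Of the 138 members, 12 were at 100 CPM or more, 12 at 50 to 100, 36 at 20 to 50 and 78 at 10 to 20. The lowest count of a member in any library was 312. Just inside the floor were WARS2-AS1, DLEU2 and LOC100506990, each at 10.2 mean CPM, and just outside it UBA6-AS1 at 9.97, LOC642846 at 9.83 and MICA-AS1 at 9.75. The floor on the mean admitted RNAs that were lower in some libraries, since 100 of the 138 were at 10 CPM or more in each one. By symbol, 33 were named as antisense RNAs, 26 carried a LOC number, 20 a LINC number, 18 were snoRNA host genes, 4 microRNA host genes and 4 divergent transcripts, and 33 had other names.

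The levels in the following are CPM scaled to the libraries' composition (TMM). The same counts, as CPM of column totals, chose the members, so the levels are a description. SNHG29, whose introns hold 3 snoRNA genes, led with 612 and 612 CPM in control and YTHDF1 of number 1, and 550 and 564 CPM in control and YTHDF1 of number 2. NEAT1, the scaffold RNA of nuclear paraspeckles, had 307 and 306 CPM in control and YTHDF1 of number 1, against 510 and 508 CPM in number 2. The vectors were alike within a number, and the libraries of number 2 were higher in both vectors. NORAD, a cytoplasmic RNA that binds Pumilio proteins, had 382 and 396 CPM in number 1 and 334 and 346 CPM in number 2. It was slightly higher with the YTHDF1 vector in each number.

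TUG1 had 167 and 169 CPM in control and YTHDF1 of number 1, and 220 and 219 CPM in number 2. AFAP1-AS1, transcribed opposite the gene of an actin filament-associated protein, had 121 and 121 CPM in number 1, and 249 and 250 CPM in number 2. LOC105376938 had 90.3 and 98.1 CPM in number 1, and 213 and 211 CPM in number 2. The last 2 RNAs were at about the same level in both vectors and separated by number without overlap. So did the other leading RNAs except SNHG16, and the share of all genes that separated in this way was not counted. SNHG16 had 160 and 184 CPM in control and YTHDF1 of number 1, and 171 and 167 CPM in number 2. GAS5, a snoRNA host first found in growth-arrested cells, had 177 and 163 CPM in number 1, and 137 and 152 CPM in number 2, so its vector difference turned from lower to higher. SNHG1 had 174 and 151 CPM in number 1, and 137 and 126 CPM in number 2, and SNHG32 had 185 and 161 CPM in number 1, and 120 and 116 CPM in number 2. Both were lower with the YTHDF1 vector in each number.

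**Figure D1:**
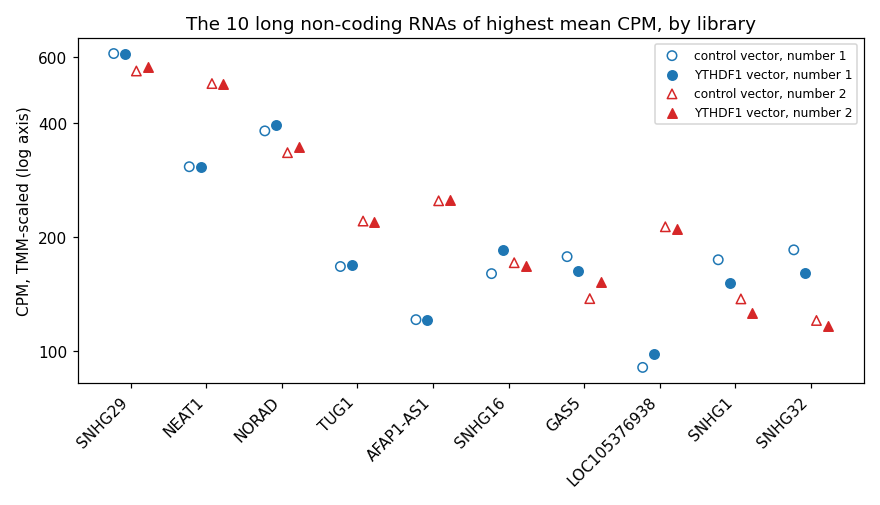
TMM-scaled CPM (log axis) of the 10 RNAs of highest mean CPM in each library, with open symbols for the control vector, filled symbols for the YTHDF1 vector, circles for number 1 and triangles for number 2. For NEAT1, TUG1, AFAP1-AS1 and LOC105376938 the 2 triangles sit above the 2 circles, while the open and filled symbols of a number lie close together. For SNHG29, NORAD, GAS5, SNHG1 and SNHG32 the 2 triangles sit below the 2 circles.

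A long RNA gives more counts per molecule, so levels were compared between genes only per kilobase of exon, from the GENCODE gene of the same name, available for 111 of the 138 (80.4%). SNHG29 stayed first at 156 CPM per kilobase. LINC00674 followed at 86.4, SNHG32 at 80.8, NORAD at 68.3, SNHG6 at 55.9, ZFAS1 at 48.7 and SNHG8 at 46.0 CPM per kilobase, so 5 of these 7 were snoRNA hosts. NEAT1, second by CPM, was at 17.9 CPM per kilobase, over 22767 bases that join all its annotated exons. Which of its transcripts gave the counts was not measured, and a shorter one would give a higher value. Of the 134 RNAs with a position in RefSeq, 14 were on chromosome 17, more than on any other.

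YTHDF1 against control. No long non-coding RNA of the group passed the test between the vectors. By edgeR's quasi-likelihood test over all 17781 genes, 0 of the 138 passed a log2 fold change of 0.5 with an unadjusted p under 0.05, where 0.101% of all genes tested did (0.0225% higher and 0.0787% lower). With Benjamini-Hochberg adjustment 0 members and 0 of all genes passed. No member had an unadjusted p under 0.05 by this test, by DESeq2's Wald test or by limma-voom, and the smallest edgeR value was 0.204. These fits had no term for the replicate number, so the difference between numbers entered their errors. With the number as a block in edgeR, 11 of the 138 had an unadjusted p under 0.05, with a smallest adjusted p of 0.924. The share of all genes at that p was not counted. In the edgeR fit without the block, the log2 fold changes ran from −0.45 to 0.30 and 7 were 0.2 or more in size, with standard errors from 0.07 to 0.77. With 2 libraries a group, errors of this size leave room for changes past the 0.5 threshold in the RNAs with the larger errors.

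The RNAs divided evenly around no change. The median log2 fold change was −0.0024 over the 138, with 67 higher and 71 lower, beside 0.0046 over all genes tested and 0.011 over the 9653 protein-coding genes at the same floor. That median turned with single libraries. It was −0.13 without control number 1, 0.13 without control number 2, 0.14 without YTHDF1 number 1 and −0.16 without YTHDF1 number 2. The 2 YTHDF1 libraries were both above the 2 control libraries for 4 RNAs and both below them for 5. Over all genes tested these shares were 5.67% and 5.83%. The 9 were FGD5-AS1, LOC101927060, EMSLR and LINC00909 above, and STAG3L5P-PVRIG2P-PILRB, SNHG7, SNHG8, LOC100129034 and LINC01963 below, named here after their values were seen. FGD5-AS1 was the highest of those above, with 102 and 105 CPM in control numbers 1 and 2, and 108 and 107 CPM in YTHDF1 numbers 1 and 2. For 125 of the 138 (90.6%) the difference between numbers was larger than that between vectors, near the 86.9% of the coding genes at the same floor and the 83.3% of all genes tested.

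Within a number there is 1 library per vector, so differences of log2 CPM are given with a counting standard error and no test. That error ran from 0.011 to 0.11 over the members and covers counting alone. The median difference, YTHDF1 minus control, was −0.0076 in number 1 and −0.014 in number 2. It was negative for 73 RNAs in number 1 and for 78 in number 2. The sign was the same in both numbers for 69 of 138 (50%), of which 28 were higher and 41 lower. It was the same for 49.5% of the coding genes at the same floor, with 2856 higher and 1918 lower. Of all genes tested it was the same for 50.4%, with 4612 higher and 4355 lower. Across the 138 RNAs the differences of number 1 and number 2 correlated at Pearson's r = 0.090, and across the coding genes at 0.157. Genes are not independent replicates, and this is a description. The difference exceeded 2 counting errors for 48 RNAs in number 1 and 33 in number 2, and in both with the same sign for 11. These counts were not made over all genes, and counting errors leave out differences between cultures, so they show no vector effect.

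**Figure D2:**
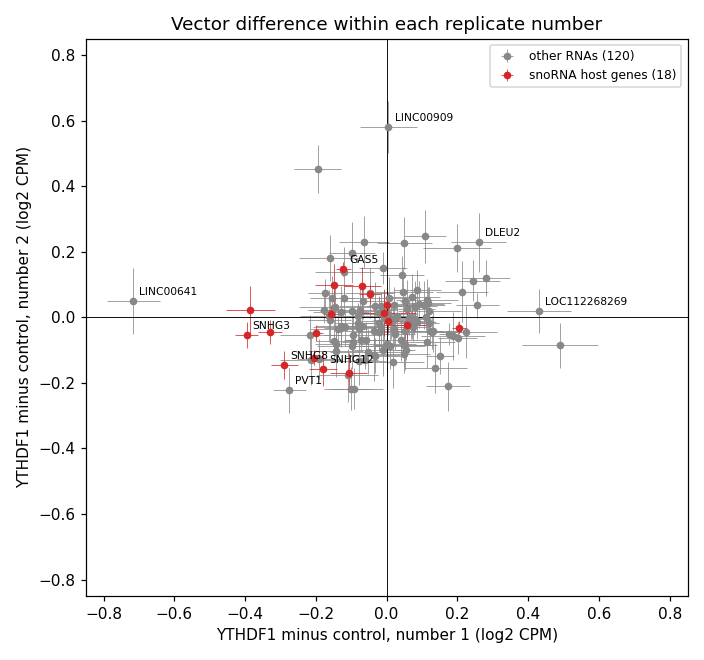
YTHDF1 minus control in log2 CPM, number 1 on the horizontal and number 2 on the vertical axis, for each of the 138 RNAs. Bars are counting standard errors, and red marks the 18 snoRNA host genes. Most points lie near 0 on both axes and the far ones lie along 1 axis, as LINC00641 at −0.72 in number 1 and 0.05 in number 2.

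The largest differences came from 1 number. LINC00641 had 16.6 CPM in control and 10.1 CPM in YTHDF1 of number 1, a difference of −0.72 ± 0.07 (counting standard error), against 6.88 and 7.12 CPM in number 2, a difference of 0.05 ± 0.10. LINC00909 had 10.9 and 11.0 CPM in number 1, and 9.36 and 14.01 CPM in number 2, where the difference was 0.58 ± 0.08. These were the only members at 0.5 or more in size in number 1 and in number 2, respectively, and neither was in the other number. LOC112268269 had 7.69 CPM in control and 10.4 CPM in YTHDF1 of number 1, against 15.3 and 15.5 CPM in number 2.

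Of the RNAs with the same sign in both numbers, the highest mean differences were those of LINC00909, DLEU2, LOC112268269, DUBR and LOC730101. DLEU2, which carries microRNAs deleted in leukemia, had 10.7 and 12.7 CPM in control and YTHDF1 of number 1, and 7.97 and 9.34 CPM in number 2. The differences were 0.26 ± 0.08 and 0.23 ± 0.09 (counting standard errors), alike in both numbers, and the fitted log2 fold change was 0.25 ± 0.29 (standard error, edgeR). DUBR had 7.15 and 8.20 CPM in number 1, and 12.4 and 14.4 CPM in number 2, with differences of 0.20 and 0.21. LOC730101 had 13.8 and 16.7 CPM in number 1, and 22.3 and 24.2 CPM in number 2. DLEU2, DUBR and LOC730101 were each higher with the YTHDF1 vector within a number, while the libraries of both vectors overlapped across numbers.

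The lowest mean differences of the same sign were those of PVT1, SNHG3, SNHG8, SNHG7 and LINC01278. PVT1, the neighbour of MYC, had 35.3 and 29.2 CPM in control and YTHDF1 of number 1, and 16.4 and 14.1 CPM in number 2, with differences of −0.27 ± 0.05 and −0.22 ± 0.07 (counting standard errors). MYC itself was at 258 and 275 CPM in number 1 and at 238 and 239 CPM in number 2. LINC01278 had 9.77 and 8.42 CPM in number 1, and 12.9 and 11.8 CPM in number 2. SNHG8 had 50.2 and 41.1 CPM in number 1, and 41.2 and 37.3 CPM in number 2, so both YTHDF1 libraries were below both controls.

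DLEU2 is shown with the microRNAs of its intron because its difference was about the same in both numbers. The mature 5p arms of its hairpins, from RefSeq on GRCh38.p14, share their seed, bases 2 to 8, which is in capitals. The microRNAs were not measured in these poly(A) libraries.
hsa-miR-15a-5p: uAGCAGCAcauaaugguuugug
hsa-miR-16-5p: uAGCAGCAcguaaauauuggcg
They lie at chr13:50049167-50049188 and chr13:50049027-50049048, both on the minus strand.

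snoRNA host genes. The exons of these genes are spliced to a non-coding RNA, and the snoRNAs that guide ribosomal RNA modification are cut from the introns. Of the 37 genes of the list, 32 were listed in the table and 18 were members. RefSeq places a snoRNA gene inside the span of all 18, strand not considered, from 1 in SNHG8 to 11 in GAS5. The list was made of genes known as hosts, so this follows from the list. In the same search, 22 of the 134 members with a position held one (16.4%), the 18 among them. It was 0.791% of the 18330 long non-coding RNAs of RefSeq. In number 1, 15 of the 18 were lower with the YTHDF1 vector, with a median difference of −0.14 in log2 CPM. In number 2, 10 of the 18 were lower, with a median of −0.017. The median over all 138 was −0.0076 in number 1 and −0.014 in number 2. Of the 18, 7 were lower in both numbers and 0 higher in both, and none was called.

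SNHG3 had 71.3 and 54.2 CPM in control and YTHDF1 of number 1, and 48.4 and 46.6 CPM in number 2, with differences of −0.40 ± 0.03 and −0.05 ± 0.04 (counting standard errors). SNHG7 had 69.7 and 55.4 CPM in number 1, and 55.9 and 54.2 CPM in number 2. In both, the control of number 1 stood above the other 3 libraries. SNHG12 had 48.5 and 42.8 CPM in number 1, and 27.8 and 24.9 CPM in number 2, with differences of −0.18 and −0.16. SNHG19 had 16.8 CPM in control and 12.9 CPM in YTHDF1 of number 1, against 13.1 and 13.3 CPM in number 2. SNHG16 and GAS5 went apart from these, with SNHG16 higher in number 1 by 0.21 and GAS5 higher in number 2 by 0.15.

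**Figure D3:**
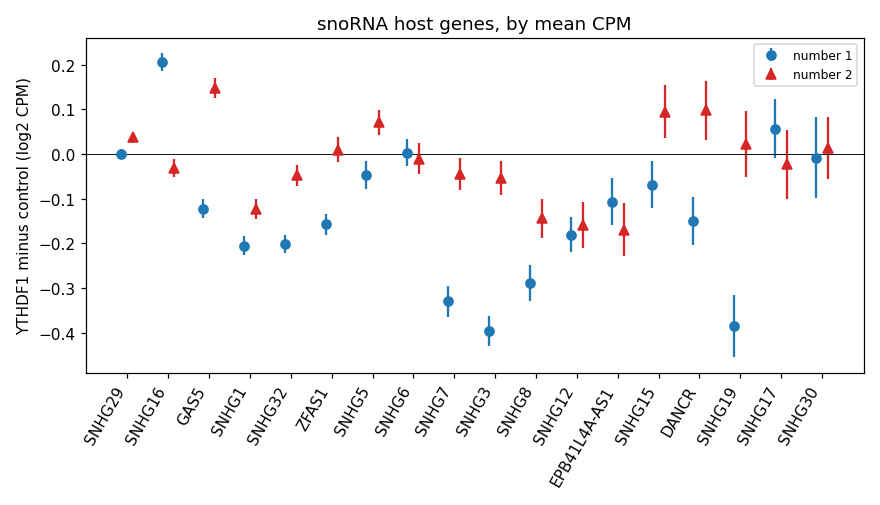
YTHDF1 minus control in log2 CPM for the 18 snoRNA host genes, ordered by mean CPM, with circles for number 1, triangles for number 2 and bars for counting standard errors. Of the circles 15 of 18 lie below 0, and of the triangles 10 of 18, with SNHG1, SNHG8 and SNHG12 among those below 0 in both.

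Many snoRNA hosts begin with a 5′ terminal oligopyrimidine tract, a run of C and T from the first transcribed base. The mRNAs of ribosomal proteins open with it as well. The annotated starts were searched for an unbroken run of at least 5 pyrimidines (C or T, on the strand of the gene) that covers the first transcribed base. Part of such a run may lie before the start, so a run does not show the tract itself. In SNHG8 only the last base of the run lies at or after the start. The run was found in 8 of the 16 host members with a promoter in RefSeq (50%), in 11 of 84 other members (13.1%), in 9.80% of all 27305 promoters and in 12.2% of those of long non-coding RNAs. Among 64 cytosolic ribosomal protein genes it was found in 45 (70.3%). The windows of the 8 hosts are shown because the run was found at their annotated starts. A run that begins a few bases after the annotated start, as in SNHG16, was not counted. Hosts without the run are thus set apart by the annotated start alone, and may hold such a tract elsewhere. Each has 10 bases before the annotated start and 20 from it, on the strand of the gene in GRCh38.p14, with the run in capitals.
SNHG1: gagattcgTTCTCatttttctactgctcgt
SNHG32: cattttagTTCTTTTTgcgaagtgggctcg
ZFAS1: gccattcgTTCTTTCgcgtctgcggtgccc
SNHG5: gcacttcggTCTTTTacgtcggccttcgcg
SNHG7: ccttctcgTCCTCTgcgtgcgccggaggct
SNHG8: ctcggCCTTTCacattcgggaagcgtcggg
SNHG12: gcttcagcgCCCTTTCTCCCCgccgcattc
SNHG19: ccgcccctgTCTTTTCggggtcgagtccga
SNHG1 lies at chr11:62855866-62855895 (minus), SNHG32 at chr6:31834906-31834935 (plus), ZFAS1 at chr20:49278632-49278661 (plus), SNHG5 at chr6:85678714-85678743 (minus), SNHG7 at chr9:136728165-136728194 (minus), SNHG8 at chr4:118278752-118278781 (plus), SNHG12 at chr1:28581854-28581883 (minus) and SNHG19 at chr16:2155339-2155368 (minus).

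The 8 hosts with the run were all lower with the YTHDF1 vector in number 1, with a median difference of −0.20, and the median was −0.046 in number 2. The 8 hosts without it had medians of −0.058 and −0.0051, with 6 of 8 lower in number 1. Over all 19 members with the run, hosts or not, 11 were lower in number 1, with a median of −0.059. Of the 81 members without it, 42 were lower in number 1, with a median of −0.0086. Outside the hosts the run thus did not go with lower values in most members. The ribosomal protein genes had medians of −0.046 in number 1 and 0.033 in number 2. The split by start sequence was made after the vector differences were known and was given no test. A start in the annotation is not a start mapped in these cells.

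Replicate number 2 against 1. The differences between numbers were larger than those between vectors and were mostly higher in number 2. By the same edgeR test at an adjusted p under 0.05, 48 of the 138 were higher (34.8%), where 9.96% of all genes tested were, and 14 were lower (10.1%), where 16.2% of all genes were. In either direction 62 passed (44.9%), beside 26.2%. Of the coding genes at the same floor, 6.95% were higher and 9.09% lower, so the members' share of lower calls was near that of coding genes of like level. The floor on the mean let in RNAs that were high in 1 number, and 19 of the 48 higher were under 10 CPM in both libraries of number 1, as 3 of the 14 lower were in both of number 2. The called counts are therefore a description of RNAs admitted by the mean. The median log2 fold change of the 138 was 0.24, that of all genes tested −0.012 and that of the coding genes at the same floor −0.0052. The ratio of number 2 to number 1 ran from 0.473 to 2.77, and 16 RNAs differed by a log2 fold change of 1 or more in size. The labels give the numbers no meaning beyond biological replicate, so what differed between them cannot be told from the labels.

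The highest was LOC107984316, with 9.60 and 10.5 CPM in control and YTHDF1 of number 1, and 28.3 and 27.4 CPM in number 2, a log2 fold change of 1.47 ± 0.07 (standard error, edgeR adjusted p = 7.73e-07). LOC105372202 had 8.54 and 7.88 CPM in number 1, and 22.9 and 22.4 CPM in number 2. LINC00994 had 6.21 and 5.98 CPM in number 1, and 15.7 and 14.6 CPM in number 2. LOC105372202 and LINC00994 thus passed the floor through number 2. LOC100507065 had 17.6 and 21.0 CPM in number 1, and 46.2 and 47.4 CPM in number 2. In each, both vectors of number 2 lay above both of number 1.

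The lowest was PVT1, at −1.08 ± 0.11 (standard error, edgeR adjusted p = 4.46e-05), with the values given above. LINC00623 had 16.9 and 15.8 CPM in control and YTHDF1 of number 1, and 7.74 and 8.88 CPM in number 2. THAP9-AS1, which starts beside THAP9, had 40.9 and 45.4 CPM in number 1, and 24.2 and 22.4 CPM in number 2. VPS9D1-AS1 had 18.8 and 20.3 CPM in number 1, and 10.2 and 12.1 CPM in number 2. LINC00641 had a log2 fold change of −0.93, with its highest value in the control of number 1.

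**Figure D4:**
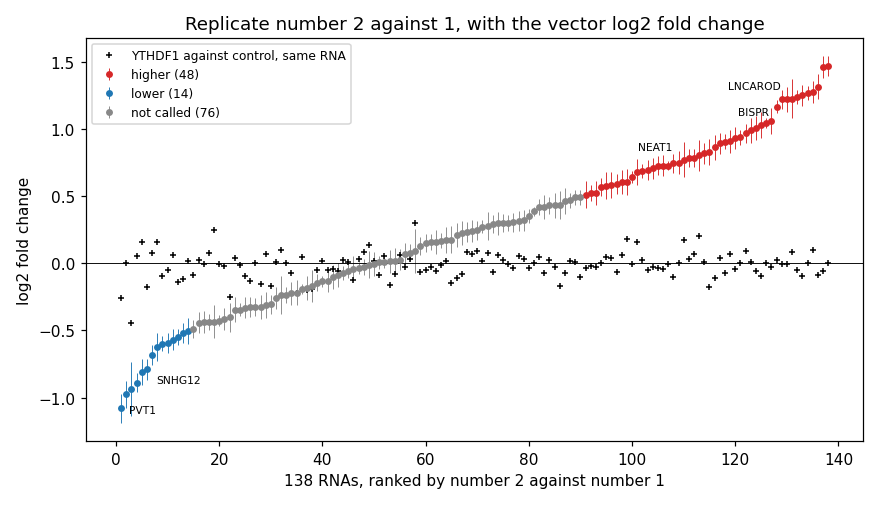
Log2 fold change of replicate number 2 against 1 for the 138 RNAs in rank order, with edgeR standard errors, red for the 48 called higher, blue for the 14 called lower and grey for the rest. Black crosses give the YTHDF1 against control log2 fold change of the same RNA, which stays between −0.45 and 0.30 across the ranks.

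The gene lists are described in turn, by counts to be read against the 9.96% of all genes tested that were higher and the 16.2% that were lower, and against the 34.8% and 10.1% of the 138. No difference between lists was tested. Of the 18 snoRNA hosts, 1 was higher and 4 were lower, few enough to lie near the shares of all genes, with a median log2 fold change of −0.32. Those lower were SNHG32, ZFAS1, SNHG12 and DANCR, and the one higher was SNHG30, with 8.66 and 8.61 CPM in number 1, and 14.5 and 14.6 CPM in number 2, so that it passed the floor through number 2. SNHG12 fell the furthest, at −0.79 ± 0.08 (standard error, edgeR adjusted p = 4.89e-05). Over the 29 hosts of the list that were tested, members or not, 2 were higher and 8 lower.

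Of the list of nuclear and retained RNAs, NEAT1, NORAD, TUG1, OIP5-AS1 and MALAT1 were members, of 10 on the list. The name of the list does not hold for each of them, since NORAD is cytoplasmic. NEAT1 alone was called, at 0.73 ± 0.03 (standard error, edgeR adjusted p = 2.51e-07). MALAT1, a nuclear speckle RNA, had 59.5 and 57.1 CPM in control and YTHDF1 of number 1, and 85.7 and 78.4 CPM in number 2, a log2 fold change of 0.49, just under the threshold. OIP5-AS1 had 84.7 and 95.7 CPM in number 1, and 67.8 and 65.5 CPM in number 2. Over the 9 tested genes of the list, 2 were higher and 0 lower. The p53-linked list of 6 held NEAT1 as its only member, and of its 5 tested genes 3 were higher and 0 lower.

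Of 16 RNAs linked to gastric cancer, UCA1, CCAT1, PVT1, CYTOR and HOTTIP were members. UCA1 had 27.9 and 29.3 CPM in control and YTHDF1 of number 1, and 40.6 and 39.8 CPM in number 2. CCAT1, which like PVT1 lies near MYC, had 20.9 and 18.9 CPM in number 1, and 34.3 and 32.5 CPM in number 2. HOTTIP, an RNA of the HOXA cluster, had 7.32 and 7.37 CPM in number 1, and 15.3 and 14.4 CPM in number 2, which alone took it past the floor. CCAT1, CYTOR and HOTTIP were called higher and PVT1 lower, while UCA1 at 0.49 missed the fold threshold. Over the 12 tested genes of the list, 5 were higher and 4 lower.

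The 4 microRNA host genes were all higher in number 2, with a median log2 fold change of 0.69, beside 34.8% of the 138 and 9.96% of all genes tested that were higher. MIR100HG had 62.4 and 64.7 CPM in control and YTHDF1 of number 1, and 101 and 98.1 CPM in number 2. MIR4435-2HG had 30.8 and 32.5 CPM in number 1, and 51.1 and 51.0 CPM in number 2. MIR31HG had 10.8 and 12.7 CPM in number 1, and 18.1 and 19.6 CPM in number 2, and MIR22HG had 10.6 and 9.90 CPM in number 1, and 19.6 and 16.8 CPM in number 2. The groups of numbers did not overlap in any of them, as in most of the leading RNAs, and the share over all genes was not counted. The main 5p arms that RefSeq places inside MIR100HG and MIR31HG are shown to identify the cargo of these hosts, with the seed in capitals. No seed is shared among them.
hsa-let-7a-5p: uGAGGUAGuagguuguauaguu
hsa-miR-100-5p: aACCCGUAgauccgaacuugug
hsa-miR-125b-5p: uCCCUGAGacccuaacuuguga
hsa-miR-31-5p: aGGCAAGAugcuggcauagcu
They lie at chr11:122146568-122146589, chr11:122152275-122152296, chr11:122099809-122099830 and chr9:21512158-21512178 of GRCh38.p14, all on the minus strand.

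Of 11 interferon-linked RNAs, BISPR and PSMB8-AS1 were members. BISPR, which starts 56 bases from BST2 on the opposite strand with 55 bases between their spans, had 10.4 and 10.1 CPM in control and YTHDF1 of number 1, and 25.4 and 23.4 CPM in number 2. Its log2 fold change between numbers was 1.25 ± 0.08 (standard error, edgeR adjusted p = 2.33e-06). BST2, the interferon-induced antiviral protein tetherin, had 128 and 124 CPM in number 1, and 269 and 260 CPM in number 2, a log2 fold change of 1.06. PSMB8-AS1 had 9.55 and 9.60 CPM in number 1, and 17.5 and 18.2 CPM in number 2, a log2 fold change of 0.90 ± 0.08 (standard error, edgeR adjusted p = 2.32e-05). PSMB8, a subunit of the immunoproteasome, had 95.3 and 90.3 CPM in number 1, and 204 and 205 CPM in number 2, a log2 fold change of 1.14. Both RNAs thus moved in the direction of the gene beside them. PSMB8-AS1 overlaps PSMB8, and the strand setting of the counting is not given in the sources used here, so their reads cannot be told apart. Over the 9 tested RNAs of the list, 6 were higher in number 2 and 0 lower, where 9.96% of all genes tested were higher and 16.2% lower. PSMB8-AS1 was under 10 CPM in both libraries of number 1 and passed the floor through number 2.

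**Figure D5:**
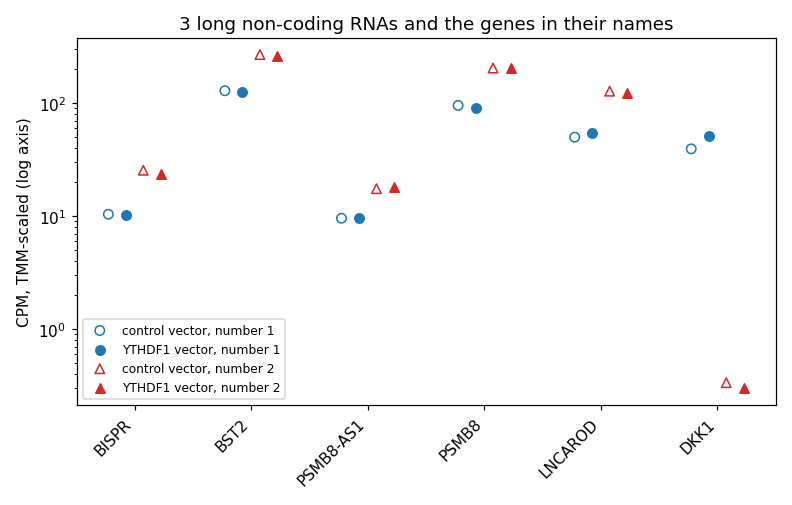
TMM-scaled CPM (log axis) of BISPR with BST2, PSMB8-AS1 with PSMB8 and LNCAROD with DKK1 in each library, open for control, filled for YTHDF1, circles for number 1 and triangles for number 2. Triangles lie above circles for the first 5 genes, and for DKK1 they lie below 1 CPM while the circles are at 39.3 and 51.2 CPM.

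Short motifs were searched on both strands from 250 bases before to 50 bases after each annotated start. The letters CCAAT were in 48 of the 100 members with a promoter in RefSeq. They were in 35.7% of all promoters and in 34.8% of those of long non-coding RNAs. In the same order, CACGTG was in 10, against 7.43% and 5.44%, and TATAAA in 8, against 11.95% and 15.2%. TTCNNNGAA, with N for any base, was in 13, against 7.88% and 9.14%. Each motif was counted on its own, whether or not it overlapped another, and a match is not a bound site.

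LNCAROD, whose name stands for an activating regulator of DKK1, had 49.9 and 54.3 CPM in control and YTHDF1 of number 1, and 127 and 124 CPM in number 2, a log2 fold change of 1.27 ± 0.05 (standard error, edgeR adjusted p = 1.99e-07). DKK1, a secreted inhibitor of Wnt signalling looked up after these values were seen, had 39.3 and 51.2 CPM in number 1, and 0.335 and 0.298 CPM in number 2, a log2 fold change of −7.15. The spans of the genes are 133219 bases apart on chromosome 10. The RNA was thus higher where the gene of its name was nearly silent.

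Over the RNAs named after a neighbouring or opposite gene, no common direction was seen. Of 39 such members, 38 have their partner in the table and 37 of the partners were tested. RNA and partner differed in the same direction between numbers in 18 of 37 pairs. Across pairs, Pearson's r of the log2 fold changes was 0.085 and Spearman's rho 0.163, a description over pairs of the same 4 libraries. AGAP2-AS1 was higher in number 2 at 0.97 while AGAP2 was at −3.80, and AFAP1-AS1 was at 1.05 while AFAP1 was at −0.22. NNT-AS1 and NNT were at 1.03 and 0.89, and PRICKLE2-AS1 and PRICKLE2 at 0.93 and 1.27. These pairs were chosen as examples after their values were seen. NNT-AS1, PRICKLE2-AS1 and AGAP2-AS1 overlap their partners on the opposite strand, so here too reads of RNA and partner cannot be told apart. Among the 39, 29 lie on opposite strands by the annotation, 25 of them overlap their partner and 10 start within 1000 bases of it.

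Present in one replicate number only. No member was under 1 CPM in both libraries of one number and at 1 CPM or more in both of the other, and none was at limits of 0.5 or 2 CPM. The lowest CPM of a member in any library was 5.25. Of the coding genes at the same floor, 72 of 9653 (0.746%) were present in one number only, all of them in number 1. Among all long non-coding RNAs listed, at any level, 87 were present in number 1 only and 63 in number 2 only at the limit of 1 CPM. The balance turned with the limit, with 137 and 87 at 0.5 CPM and 50 and 69 at 2 CPM. Some of these only straddled the limit, as C7orf69, with 45 and 42 counts in control and YTHDF1 of number 1 against 146 and 169 in number 2. The highest of these were below the floor of the group. LINC00698 had 706 and 652 counts in control and YTHDF1 of number 1 and 0 and 0 in number 2, and LINC00839 had 417 and 384 counts against 0 and 0. With 3 counts allowed by a 0, the libraries of number 2 held each at far under 1 CPM.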

How the data were processed

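Poly(A) RNA of 4 libraries was sequenced with a stranded mRNA kit. The authors deposited raw counts per gene, without normalization, and the submitters' processing notes name Trimmomatic, HISAT2 and GRCh38. The counting tool, strand setting and annotation release are not given in the sources used here. Of the authors' values only the counts were used. Total counts per library were 57398137 to 60864942, and a count of 0 allows up to 3 counts. Intervals from counts cover counting error alone: the reads carry no molecular identifiers and may be copies of 1 molecule.

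The floor of 10 CPM used column totals, and all other levels used TMM-scaled library sizes. In R 4.3.3, edgeR 4.0.16 (filterByExpr, quasi-likelihood test) was fitted over 17781 genes, which included all 138 RNAs, and DESeq2 1.42.0 and limma 3.58.1 were alternatives. The vector fit had no covariate, and calls needed a log2 fold change of 0.5 in size with p under 0.05. P-values measure the spread between these libraries only. Differences within a number used a prior count of 0.5. The steps were also run on simulated data with a scatter set by hand, whose outcome is not given here and lends the results no support. Figures were drawn in Python with matplotlib.

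Named RNAs are the 10 of highest mean CPM, the 5 highest and 5 lowest mean vector differences of the same sign, the 5 highest and 5 lowest between numbers among those called, and members of the lists (snoRNA hosts, nuclear, microRNA hosts, interferon-linked, gastric cancer-linked, p53-linked). Members and lists were chosen with earlier results of these data known. Starts, spans and sequences came from RefSeq on GRCh38.p14, exon lengths from GENCODE v29.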

Additional observations from a re-analysis of the deposited data

How the results depend on the processing

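The absence of vector calls among the RNAs held under every alternative tried. In the fits of all 4 libraries, the log2 fold changes of the 138 lay between −0.458 and 0.301. The fold threshold of 0.5 alone thus gave no calls there, so those alternatives lend no separate support. The count was 0 with the Wald test of DESeq2, with limma-voom, with DESeq2 size factors, with plain column totals, with YTHDF1 excluded from library sizes, with no filter on low counts, with adjusted p, member floors of 5 or 20 mean CPM, and each library left out in turn. The lone library of a group is then assumed to vary like the other group. A floor of 5 mean CPM gave 247 RNAs and a floor of 20 gave 60. The median vector log2 fold change ran from −0.16 to 0.14 when each library was left out. The calls between numbers ran from 60 to 64 over all settings, and from 61 to 64 with a library left out. None was present in one number only under any limit tried. Of the 29 named RNAs, 24 changed the sign of their vector log2 fold change in at least 1 leave-one-out fit and 5 under another setting, and none was called.

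In the edgeR vector fit blocked on the replicate number (replicate block), 0 RNAs were called and the median was −0.0035. An unadjusted p under 0.05 was reached by 11, with a smallest adjusted p of 0.924. Without the share of all genes at that p, which was not counted, the 11 show no vector effect. Deviations of the libraries from their group means correlated at 0.875 within a number over all genes tested and at 0.956 over the members. There are only 2 pairs, and the labels give the numbers no meaning. The libraries of a number were nonetheless closer over all genes tested (r = 0.985 and 0.983) than those of a vector (0.886 and 0.888). The block changed no call.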

Other observations

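Of the interferon-linked RNAs below the 10 CPM floor, MIR155HG, the host of an inflammatory microRNA, had 148 counts in control and 0 in YTHDF1 of number 1, and 266 and 363 counts in control and YTHDF1 of number 2. The 0 allows up to 3 counts. HCP5, in the major histocompatibility complex, had 7.80 and 6.90 CPM in number 1, and 10.2 and 11.2 CPM in number 2. IRF1-AS1 had 6.34 and 6.42 CPM in number 1, and 9.08 and 9.11 CPM in number 2. Of the p53-linked RNAs below the floor, PURPL had 4.56 and 3.94 CPM in number 1, and 9.59 and 9.03 CPM in number 2, and TP53TG1 had 3.03 and 2.70 CPM against 7.19 and 6.53 CPM. TINCR, of the gastric cancer-linked list, had 4.26 and 3.58 CPM in number 1, and 0.882 and 0.928 CPM in number 2.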
